A study of Homo sapiens with 6 samples.

Results

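The nuclear end of the canonical Wnt pathway was followed through 10 genes, namely the 4 TCF/LEF transcription factors TCF7, TCF7L1, TCF7L2 and LEF1, the 4 TLE corepressors TLE1, TLE2, TLE3 and TLE4, and the BCL9 paralogs BCL9 and BCL9L. They were taken by symbol from the 35474 genes in the deposited count table, and all 10 were listed. The cells were A549, an established human lung adenocarcinoma line, and RNA was collected 48 h after transfection either with siRNA against BAP18 (siBAP18) or with a non-targeting siRNA (siCtrl). Each group had 3 libraries, labelled as biological replicates, and the design compared siBAP18 with siCtrl. The knockdown was transient, and which of the study's 3 BAP18 siRNAs these cultures received is not stated in the sources used here. Library totals ranged from 42094524 to 56548620 counts. Mitochondrial genes took 6.86% to 7.43% of the counts in siCtrl and 5.27% to 6.14% in siBAP18.

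In the nucleus, TCF/LEF proteins sit on Wnt target genes through an HMG box. Without a Wnt signal they hold TLE proteins (the Groucho family), which recruit histone deacetylases and keep the target silent. When β-catenin accumulates it takes the place of TLE on the TCF/LEF protein, and BCL9 or BCL9L links it to the PYGO proteins and so to activation of the target. TCF7L1 is known mainly as a repressor, LEF1 and TCF7 are best known in lymphocytes, and TCF7L2 is the common family member in many epithelia.

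The targeted gene was checked first. BAP18, listed as C17orf49, had 15.1 ± 1.09 CPM (counts over the library total after TMM scaling; SD, n = 3) in siCtrl and 2.41 ± 0.235 CPM (SD, n = 3) in siBAP18, so the labels and the target agree in every library. The cells' label was checked against epithelial markers (EPCAM, KRT8, KRT18, KRT19 and CDH1), which summed to 18930 to 20450 CPM in siCtrl and to 14066 to 17514 CPM in siBAP18. Nearly all of this sum was KRT8 and KRT18. CDH1, which encodes E-cadherin, fell from 63.9 ± 1.27 to 25.5 ± 0.202 CPM (log2 fold change −1.32, edgeR adjusted p = 3.81e-14), EPCAM, KRT8 and KRT18 also fell, and KRT19 had a log2 fold change of 0.15 that did not pass. Since TCF7 and LEF1 are lymphocyte genes, T cell markers were also read. Of 7 on the list 3 were present in the table, and they summed to 0.280 to 0.364 CPM in siCtrl and to 0.444 to 0.925 CPM in siBAP18, with CD3G at 0 to 2 counts per library. CD8A, the 1 tested marker of these, carried the rise, with 7 to 12 counts in siCtrl and 18 to 43 in siBAP18 (log2 fold change 1.41, edgeR adjusted p = 0.00488, or 0.0561 without siBAP18 replicate 2). Fibroblast markers summed to 12.2 to 13.2 CPM in siCtrl and 9.25 to 10.3 CPM in siBAP18, nearly all of it COL1A1. Endothelial markers summed to 0.984 to 1.15 CPM and 0.890 to 1.13 CPM, respectively, with PECAM1 at 8 to 45 counts per library (log2 fold change −1.53, edgeR adjusted p = 0.00123) and CDH5 at 8 to 36 counts (log2 fold change 1.10, edgeR adjusted p = 0.0148, or 0.0938 without siCtrl replicate 3) going opposite ways. The part of these marker levels and of the mitochondrial share in the results was not tested.

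Since an siRNA guide can also act on transcripts that pair with its bases 2 to 8, the 3′ UTRs of the 10 genes were searched for the complement of those bases in each of the 3 BAP18 siRNAs. The words were AATCACA for siBAP18#1, AAGATTC for siBAP18#2 and ACTCAAC for siBAP18#3. TCF7L2 and BCL9L each held 1 AATCACA and 1 ACTCAAC, and no member held AAGATTC. Over the 16571 genes with a 3′ UTR of at least 50 bases, 13.6% held AATCACA, 10.7% held AAGATTC and 6.80% held ACTCAAC, while 1.91% held both AATCACA and ACTCAAC. In TCF7L2 the starts of these words lie 16 bases apart. The shares over all genes were not matched for 3′ UTR length, which was 2044 bases in TCF7L2 and 4540 bases in BCL9L. The sites are shown on the transcript strand from GENCODE 29 on hg38, with the words in capitals.
TCF7L2, ACTCAAC then AATCACA, + strand, chr10:113166586-113166614: gctACTCAACacttaatagAATCACAacg
BCL9L, ACTCAAC at chr11:118895269-118895275, − strand: cagctacctgaACTCAACcagtctgagct
BCL9L, AATCACA at chr11:118893916-118893922, − strand: ttgtgcagggcAATCACAgttttgcagag
A word in a 3′ UTR is a description of its letters and no measure of an siRNA's action there.

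The promoters of the members were searched for the letters that TCF/LEF proteins prefer, CTTTGAA or CTTTGAT, on both strands in the 250 bases upstream of each RefSeq start (GRCh38.p14). RefSeq gave 16 starts for 9 of the 10 genes, and 1 of the 16 held a match, against 5.94% of 35116 promoters. The match lay 114 bases upstream of the second TLE4 start, inside the span of TLE4, and it is shown as the only match found.
TLE4, CTTTGAA in capitals, + strand, chr9:79573039-79573093: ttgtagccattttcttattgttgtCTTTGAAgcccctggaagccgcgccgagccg

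The nuclear components moved in a mixed pattern after BAP18 knockdown. TLE4, TLE3, TLE1 and BCL9L rose, TLE2, TCF7 and TCF7L2 fell, TCF7L1 and BCL9 did not pass the test, and LEF1 was all but unread. In bulk RNA, fewer cells that express a gene and less of its RNA per cell cannot be told apart. Of the 10 genes, 9 passed the filter on low counts and were tested in edgeR by its quasi-likelihood method, and p-values were adjusted by Benjamini and Hochberg's method over all 20776 genes tested. At an adjusted p under 0.05, 4 of the 9 were higher, against 24.5% of all genes tested, and 3 were lower, against 25.1%. Together 7 of 9 (77.8%) passed, in a comparison where 49.6% of all genes did. The median log2 fold change was 0.28 over the 9 members and 0.0010 over all genes. The groups did not overlap in CPM for 8 of the 9, against 56.6% of all genes. Past a log2 fold change of 1 in size as well, TLE2 was the 1 member called, and 3.74% of all genes were called in its direction.

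**Figure D1:**
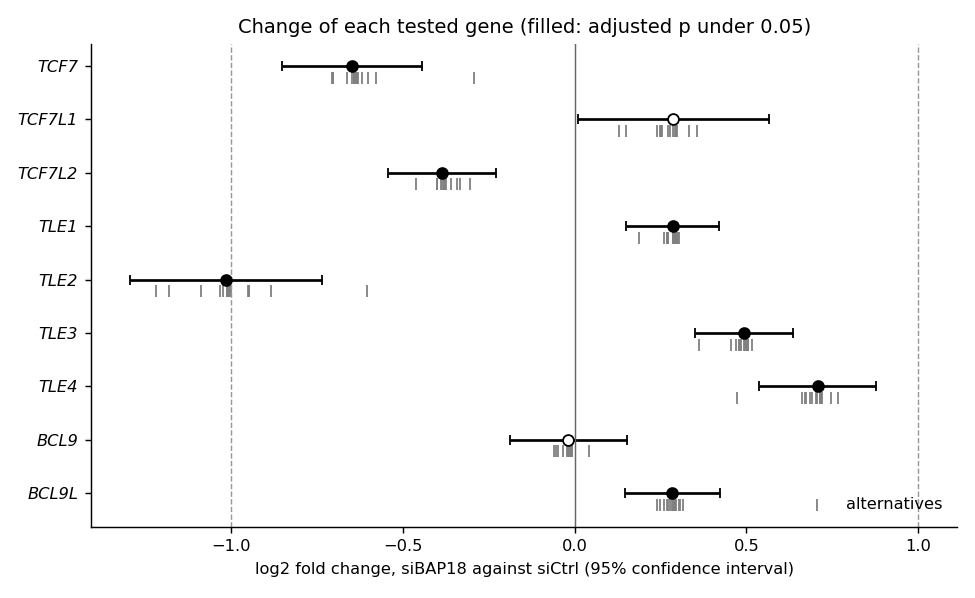
Log2 fold change of the 9 tested genes, siBAP18 against siCtrl (x axis), with points for the edgeR estimate, bars for its 95% confidence interval and grey ticks for the 16 alternative analyses. Filled points have an adjusted p under 0.05, and dashed lines mark −1 and 1. TLE4 at 0.71 is the highest and TLE2 at −1.02 the lowest, and TLE2's ticks fall on both sides of −1.

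Levels were compared between genes per length, as RPKM (counts per kilobase of exon relative to the library total). In siCtrl, TLE1 (14.9 ± 0.536 RPKM; SD, n = 3) and BCL9L (14.8 ± 0.373) stood highest and overlapped each other. TCF7L2 followed at 4.34 ± 0.0255 RPKM. BCL9 at 2.30 ± 0.159, TLE3 at 2.26 ± 0.0307 and TLE2 at 2.14 ± 0.213 RPKM came next, and each overlapped its neighbour. TLE4 at 1.58 ± 0.0910, TCF7 at 1.04 ± 0.0701 and TCF7L1 at 0.738 ± 0.0431 RPKM stood apart from one another in every library, and LEF1 was listed at 0. In siBAP18 the order below TCF7L2 changed. The means of TLE3 and TLE4 stood above that of BCL9, TLE2 at 1.07 ± 0.236 RPKM stood below TLE4, and TCF7L1 (0.902 ± 0.110 RPKM) stood above TCF7 (0.662 ± 0.0629 RPKM). Neighbours that overlapped in siBAP18 were TLE1 with BCL9L, TCF7L2 with TLE3, TLE4 with BCL9, and TLE2 with TCF7L1.

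**Figure D2:**
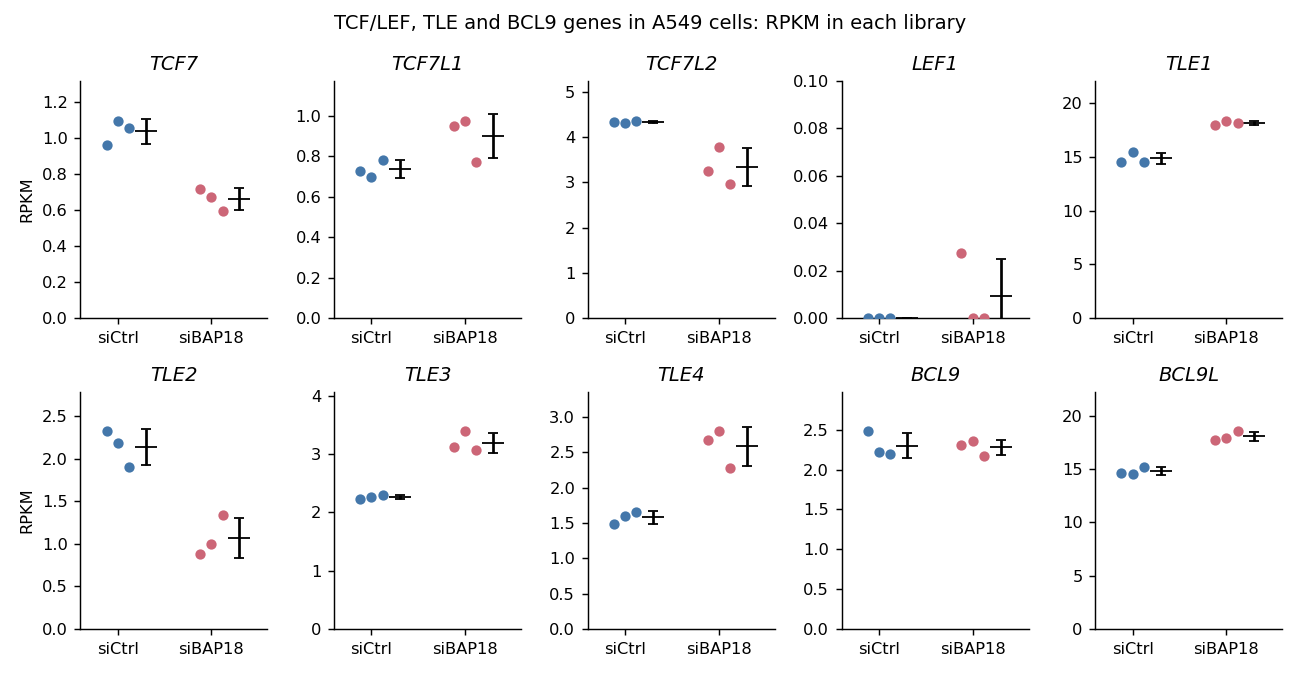
RPKM of each gene (y axes, from 0, each with its own scale) in the 3 siCtrl (blue) and 3 siBAP18 (red) libraries, with bars for the mean and SD. Groups are apart for TCF7, TCF7L2, TLE1, TLE2, TLE3, TLE4 and BCL9L, and they overlap for TCF7L1 and BCL9.

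Among the TCF/LEF factors, TCF7L2 and TCF7 fell. TCF7L2, the most abundant of them, lies on the + strand of chromosome 10, from 112950250 to 113167678 (hg38, as for all members below). It was at 4.34, 4.31 and 4.37 RPKM in siCtrl replicates 1, 2 and 3 and at 3.24, 3.79 and 2.97 RPKM in siBAP18. All 3 siBAP18 libraries were below all siCtrl libraries, with replicate 2 the nearest. The log2 fold change was −0.38 (standard error 0.0763, edgeR adjusted p = 1.56e-04). TCF7, which encodes TCF-1, lies on the + strand of chromosome 5, from 134114711 to 134151865. Its values were 0.959, 1.10 and 1.05 RPKM in siCtrl and 0.720, 0.671 and 0.595 RPKM in siBAP18, again with no overlap. It fell by 0.65 on the log2 scale (standard error 0.0991, edgeR adjusted p = 5.75e-06), or 1.57-fold, and by 0.29 with limma on log2(RPKM + 1).

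TCF7L1, on the + strand of chromosome 2 from 85133410 to 85310388, had 0.730, 0.699 and 0.784 RPKM in siCtrl and 0.952, 0.978 and 0.775 RPKM in siBAP18. Replicate 3 of siBAP18 lay among the siCtrl libraries on this scale, whereas in TMM-scaled CPM it lay just above them, at 3.55 against at most 3.49 CPM. The log2 fold change was 0.29 (95% confidence interval 0.0093 to 0.56, edgeR adjusted p = 0.0805), which does not pass. Without siBAP18 replicate 3 it was 0.36 with an adjusted p of 0.0300, and in the other 15 alternatives it did not pass, with 0.15 (adjusted p = 0.384) under offsets for GC content and transcript length and 0.13 (adjusted p = 0.147) by limma on log2(RPKM + 1).

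LEF1, on the − strand of chromosome 4 from 108047545 to 108168956, had no counts in the 3 siCtrl libraries and 8, 0 and 0 counts in siBAP18 replicates 1, 2 and 3. It did not pass the filter and was not tested. At this depth a count of 0 allows up to 3 counts, or 0.0559 to 0.0652 CPM per siCtrl library, and this limit covers counting error only. Where 2 counts stand for 1 read pair, 3 unseen pairs make the limit 0.112 to 0.130 CPM. LEF1-AS1, an antisense transcript that shares 279 exon bases with LEF1, had 0, 2 and 2 counts in siCtrl and 6, 4 and 2 in siBAP18.

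Of the TLE corepressors, 3 rose and 1 fell. TLE4, on the + strand of chromosome 9 from 79571773 to 79726882, was at 1.48, 1.59 and 1.66 RPKM in siCtrl and at 2.68, 2.80 and 2.28 RPKM in siBAP18. Its lowest siBAP18 library, replicate 3, was still above every siCtrl library. The log2 fold change was 0.71 (standard error 0.0824, edgeR adjusted p = 8.91e-08), a 1.63-fold rise. TLE3, on the − strand of chromosome 15 from 70047790 to 70098176, went from 2.23, 2.26 and 2.29 RPKM to 3.11, 3.39 and 3.07 RPKM. The SD of the siCtrl libraries was 0.0307 RPKM, and TLE3 rose by a log2 fold change of 0.49 (standard error 0.0687, edgeR adjusted p = 1.47e-06).

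TLE1, the main TLE transcript in these cells, lies on the − strand of chromosome 9, from 81583683 to 81689305. It was read at 14.6, 15.5 and 14.6 RPKM in siCtrl and at 18.0, 18.4 and 18.1 RPKM in siBAP18. Its log2 fold change was 0.29 (standard error 0.0653, edgeR adjusted p = 7.17e-04), with no overlap between the groups, and 0.19 with offsets for GC content and transcript length.

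TLE2 went the other way. It lies on the − strand of chromosome 19, from 2997638 to 3047635, and had 2.33, 2.19 and 1.91 RPKM in siCtrl and 0.881, 0.998 and 1.34 RPKM in siBAP18. The groups did not overlap, although siBAP18 replicate 3 stood above the other siBAP18 libraries. The log2 fold change was −1.02 (standard error 0.135, edgeR adjusted p = 7.46e-07), 2.02-fold lower, with a 95% confidence interval from −1.29 to −0.74 that spans −1. Whether it counted as called depended on single libraries, since the log2 fold change was −0.95 without siCtrl replicate 1, −0.89 without siBAP18 replicate 1 and −0.95 without siBAP18 replicate 2. With limma it was −0.60 on log2(RPKM + 1) and −0.95 on log2(RPKM + 0.1), scales that shrink the change of a low gene. Its adjusted p stayed at or under 0.00187 in all 16 alternatives.

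The balance within the TLE family can be read inside each library. TLE4 was at 0.636 to 0.870 of the TLE2 level in siCtrl and at 1.70 to 3.04 times that level in siBAP18. TLE3 and TLE2 were near parity in siCtrl, at a ratio of 0.958 to 1.20, and TLE3 was 2.30 to 3.53 times higher in siBAP18. In each of these ratios the smallest siBAP18 value was that of replicate 3.

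The BCL9 paralogs differed from each other. BCL9L, on the − strand of chromosome 11 from 118893875 to 118925608, had 14.7, 14.5 and 15.2 RPKM in siCtrl and 17.8, 17.9 and 18.6 RPKM in siBAP18. It rose by a log2 fold change of 0.28 (standard error 0.0669, edgeR adjusted p = 9.27e-04), with no overlap. BCL9, on the + strand of chromosome 1 from 147541412 to 147626216, had 2.48, 2.22 and 2.20 RPKM in siCtrl and 2.31, 2.36 and 2.18 RPKM in siBAP18. The groups overlapped, and the log2 fold change was −0.019 with a 95% confidence interval from −0.19 to 0.15 (edgeR adjusted p = 0.871). The interval leaves room for a fall of 0.19 or a rise of 0.15 on the log2 scale.

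**Figure D3:**
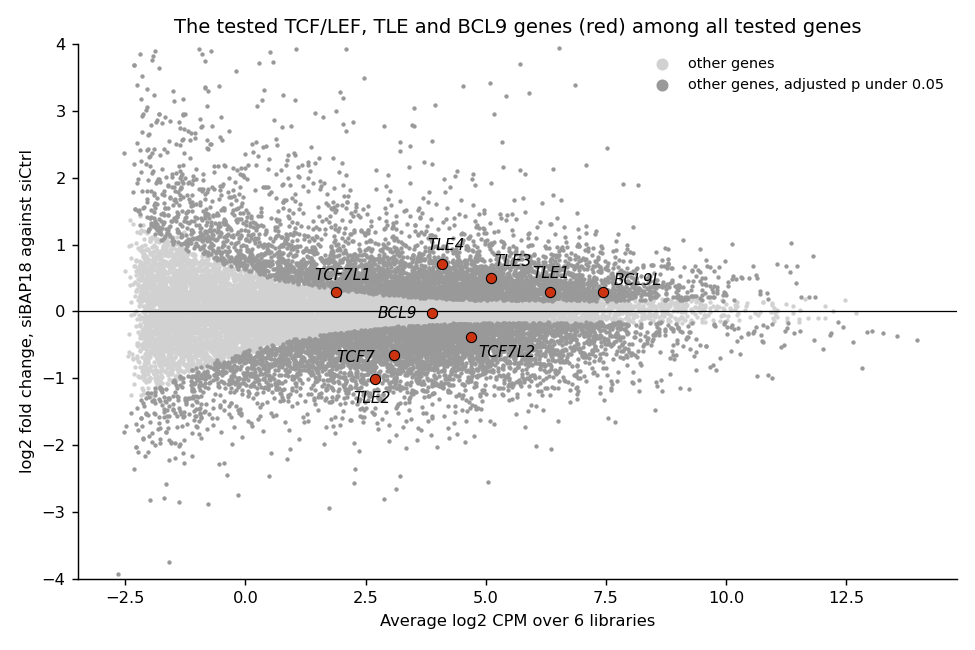
Log2 fold change, siBAP18 against siCtrl (y axis), against average log2 CPM over 6 libraries (x axis) for all tested genes in grey, darker at an adjusted p under 0.05, with the 9 tested TCF/LEF, TLE and BCL9 genes in red. The y axis stops at −4 and 4, which leaves out 67 genes. TLE2 at −1.02 and TLE4 at 0.71 are the lowest and highest red points, and both lie among many other genes that changed as much.

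Summed over each family, TCF/LEF RNA went from 6.11 ± 0.0885 to 4.91 ± 0.550 RPKM (SD, n = 3 in each group), TLE RNA from 20.9 ± 0.596 to 25.0 ± 0.481 RPKM, and BCL9 RNA from 17.1 ± 0.341 to 20.4 ± 0.339 RPKM. The share of each paralog in its family was then compared, which does not depend on the scaling of the libraries. TLE2's share of TLE RNA was 11.3%, 10.2% and 9.34% in siCtrl and 3.57%, 3.90% and 5.38% in siBAP18. TLE4's share was 7.18%, 7.39% and 8.12% in siCtrl and 10.8%, 10.9% and 9.16% in siBAP18, and TLE3's mean share went from 10.8% to 12.7%. TLE1 held 71.3% ± 0.623 of TLE RNA in siCtrl and 72.7% ± 0.652 in siBAP18 (SD, n = 3), with overlap between the groups.

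Within the TCF/LEF family, TCF7L1's share was 12.1%, 11.4% and 12.6% in siCtrl and 19.3%, 18.0% and 17.9% in siBAP18, with no overlap. TCF7L1's own log2 fold change of 0.29 did not pass (edgeR adjusted p = 0.0805), and TCF7 and TCF7L2, in the same sum, fell. Shares were not recomputed with the GC and length offsets. TCF7's mean share went from 16.9% to 13.5% and that of TCF7L2 from 71.0% to 67.9%. The TCF7L2 difference of −3.08 percentage points was −1.93 without siBAP18 replicate 1. In every siCtrl library TCF7 was above TCF7L1, at a ratio of 1.31 to 1.57, and in every siBAP18 library it was below, at a ratio of 0.687 to 0.768. BCL9L's mean share of BCL9 RNA went from 86.6% to 88.8%. The groups did not overlap for 8 of the 10 shares, which are not separate outcomes, since shares of a family sum to 100% and those of BCL9 and BCL9L mirror each other. Each of the 8 had p = 0.1 by a two-sided exact permutation test, which is the smallest p that 3 against 3 libraries allow, and 0.125 after Benjamini-Hochberg adjustment over the 10 shares, so the shares alone could not pass 0.05.

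**Figure D4:**
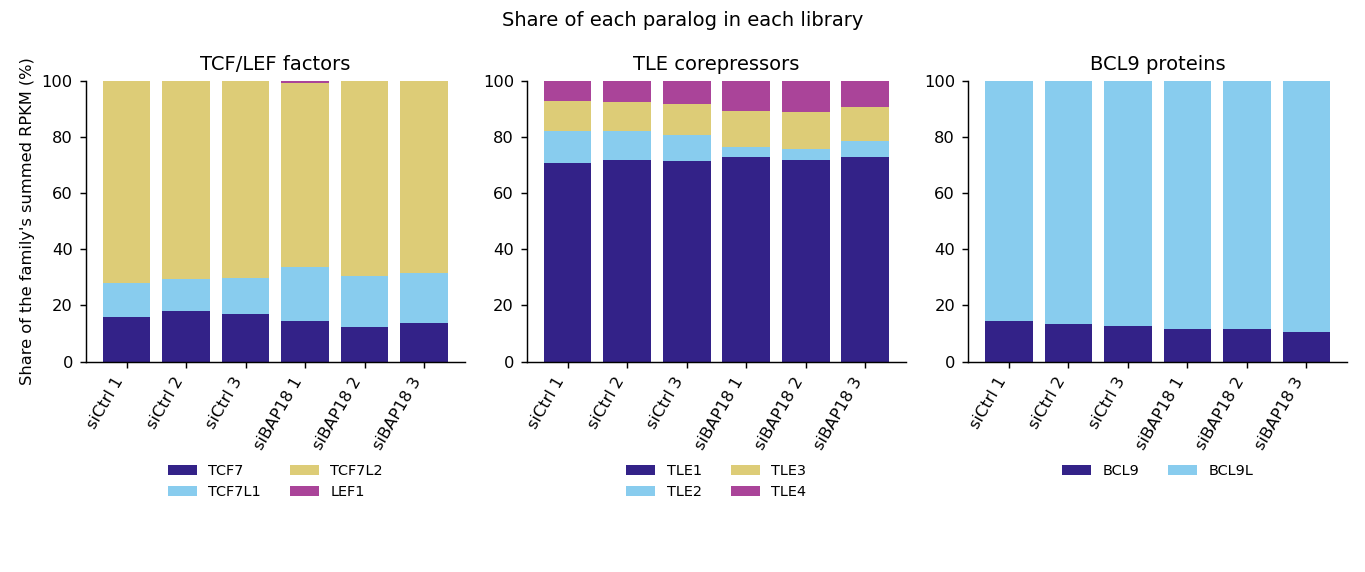
Share of each paralog in its family's summed RPKM (y axis, %) in each of the 6 libraries (x axis), stacked to 100%, for the TCF/LEF factors, the TLE corepressors and the BCL9 proteins. The TLE2 segment is thinner in all siBAP18 libraries (3.57% to 5.38%) than in siCtrl (9.34% to 11.3%), and the TCF7L1 segment is wider (17.9% to 19.3% against 11.4% to 12.6%).

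Some members share exon bases with neighbours, and reads there cannot be assigned with certainty because the use of strand in the counting is not given in the sources used here. CXCR5, a chemokine receptor gene on the other strand, shares 3925 of BCL9L's 10470 exon bases. It had 253 to 463 counts per library against 7004 to 10593 for BCL9L, and its log2 fold change was 0.40 (edgeR adjusted p = 0.00301). UPK2 shares 54 and MIR4492 80 bases with BCL9L, with at most 69 and 3 counts. SKP1, a ubiquitin ligase subunit, shares 210 bases with TCF7 on the other strand, and had 5827 to 10147 counts per library against 252 to 518 for TCF7. It fell in the same direction as TCF7, with a log2 fold change of −0.29 (edgeR adjusted p = 5.98e-04), or −0.0072 (adjusted p = 0.928) with offsets for GC content and transcript length. RP11-57H14.2 shares 300 bases with TCF7L2 and had 33 to 70 counts, and RP11-79D8.2, which shares 253 bases with TLE4 on the same strand, had 2 to 8 counts. The pseudogene TLE1P1 had 6 to 14 counts and BCL9P1 0 to 2.

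Genes whose proteins act with those of the members were read from lists, as RNA only. Of 21 nuclear β-catenin coactivators, all tested, 8 were higher and 8 lower, with a median log2 fold change of −0.032. CTNNB1, which encodes β-catenin, went from 63.8 ± 2.72 to 48.2 ± 4.54 CPM (SD, n = 3 in each group), a log2 fold change of −0.40 (edgeR adjusted p = 5.70e-05), or −0.25 with offsets for GC content and transcript length. PAF1, a subunit of the elongation factor complex that β-catenin contacts, rose from 491 ± 25.4 to 753 ± 75.4 CPM. The log2 fold change of PAF1 was 0.62, or 0.45 with the same offsets. Its partner LEO1 fell from 179 ± 10.1 to 115 ± 1.37 CPM, a log2 fold change of −0.64, or −0.54 with the offsets. The RNA of SMARCA4, which encodes the BRG1 chromatin remodelling ATPase, rose by a log2 fold change of 0.99. These data do not show whether BRG1 protein was made. PARP1 fell by 0.49 on the log2 scale. PAF1 and LEO1, subunits of the same complex, thus moved in opposite directions.

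Of 17 nuclear inhibitors of TCF and β-catenin, 16 were tested, 7 were higher and 6 lower, with a median log2 fold change of 0.11. HBP1, an HMG-box repressor that binds TCF, had a log2 fold change of 0.62. RUVBL2, the reptin ATPase, had 0.52, or 0.34 with the same offsets, and AES (TLE5), a short Groucho relative that lacks the WD repeats of the other TLEs, had 0.40. SOX17 fell by 0.65 on the log2 scale. TLE6 had 2.34 ± 0.304 CPM in siCtrl and 2.35 ± 0.101 CPM in siBAP18 and did not pass (edgeR adjusted p = 0.987), with log2 fold changes from −0.16 to 0.078 over the alternatives.

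Of 6 modifiers of TLE proteins, 3 were lower and none higher. HIPK2, a kinase that phosphorylates Groucho proteins, fell by 0.67 on the log2 scale, XIAP, a ubiquitin ligase for TLE, by 0.48 and USP47, a deubiquitinase, by 0.22. With offsets for GC content and transcript length, HIPK2 passed while XIAP (−0.12, adjusted p = 0.154) and USP47 (0.042, adjusted p = 0.565) did not. USP47 also did not pass without siCtrl replicate 3 (adjusted p = 0.0783) or with limma on log2(RPKM + 0.1) (adjusted p = 0.0503). Of the 17 DNA-binding partners of TLE, 13 were tested, and 6 were higher and 1 lower, with a median of 0.39. HES1, the Notch-induced repressor, went from 29.1 ± 2.18 to 43.9 ± 2.04 CPM and RUNX1 from 3.50 ± 0.309 to 5.92 ± 0.554 CPM. EN1, a homeobox gene, rose from a low 0.488 ± 0.0694 to 1.73 ± 0.137 CPM, and FOXA1, a pioneer factor of lung epithelium, fell from 15.4 ± 0.230 to 11.7 ± 0.292 CPM.

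TCF/LEF target genes showed no common direction. Of 34 on the list 33 were present and 25 tested, with 10 higher, 9 lower and a median of −0.0048. FOSL1 and JUN, subunits of the AP-1 factor, had the largest log2 fold changes of the list, 3.70 and 3.39, whereas CCND1 (cyclin D1) fell by 0.79 and BMP4 by 0.59 on the log2 scale. Members of the E protein family carry names close to those of the TCF/LEF factors, since TCF7L1 and TCF7L2 were once called TCF3 and TCF4. The gene listed as TCF3 rose by a log2 fold change of 0.64, and those listed as TCF12 and TCF4 fell by 0.31 and 0.45 on the log2 scale. With the GC and length offsets TCF3 alone of these passed, and TCF4 did not pass without siCtrl replicate 1 or siBAP18 replicate 1 (adjusted p = 0.138 and 0.0950). None of these lists was compared with chance, and each stood beside a background of 49.6% of genes passing.

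**Figure D5:**
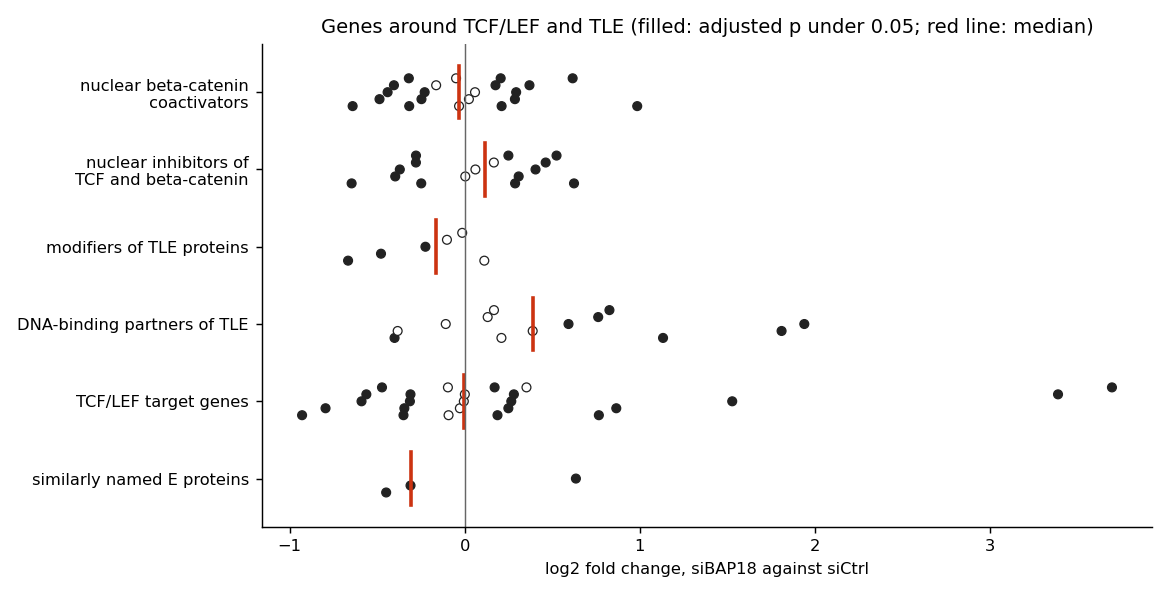
Log2 fold change, siBAP18 against siCtrl (x axis), of each tested gene in 6 lists (y axis), filled at an adjusted p under 0.05, with the list's median in red. Medians run from −0.31 for the E proteins to 0.39 for the DNA-binding partners of TLE, and FOSL1 and JUN stand alone above 3.

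For the member with the smallest adjusted p in each family, the genes whose log2 CPM over the 6 libraries followed it most closely were listed as a description. TCF7 was followed by POF1B (Pearson r = 0.999), HSD17B12 (0.998) and CTD-2033A16.1 (0.997), TLE4 by SBDSP1 (0.998), COL4A1 (0.998) and EXO5 (0.997), and BCL9L by UBXN1 (1.000), HEXIM2 (0.999) and SERF2 (0.999). With 6 libraries in 2 groups such values are common, and r was over 0.95 for 1519, 1129 and 1326 of 14221 genes, respectively.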

How the data were processed

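Poly(A) RNA from 3 siCtrl and 3 siBAP18 A549 libraries was sequenced in pairs with strand-marked libraries. The authors deposited a count per gene, without normalization, and RPKM values. All 170144 RPKM values above 0 equal the count per kilobase over the library's total, up to a constant, within a relative tolerance of 1e-06. Build hg38 is in the submitters' processing notes, beside a mouse build. Aligner and counting program are not given in the sources used here. Of genes with 1 to 10 counts in a library, 76.7% to 78.7% had an even count, so 2 counts may stand for 1 read pair. Members' spans equal those of GENCODE 29.

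The software was R 4.3.3 (edgeR 4.0.16, with limma 3.58.1 and DESeq2 1.42.0 for alternatives) and Python 3.11.15. Genes passing filterByExpr were TMM-scaled and compared by the quasi-likelihood test of edgeR, with p-values adjusted by Benjamini and Hochberg's method. The steps were run on simulated data in which the planted changes were larger than that of any member. That run therefore did not cover changes of the members' size. Replicates differed beyond sampling noise, so none was a copy. Chi-square per degree of freedom was 3.94 to 4.56 between siCtrl libraries and 10.1 to 23.3 between siBAP18 libraries. Same-numbered libraries had residual correlations of 0.0714, 0.220 and 0.103 and were not treated as paired.

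Named genes are BAP18, the members, genes sharing their exon bases, up to 4 genes with the smallest adjusted p under 0.05 in each list, CTNNB1, PAF1, and for 3 members the 3 genes most like them among genes averaging a log2 CPM of 1 or more. TLE6, the marker genes and the pseudogenes TLE1P1 and BCL9P1 fall outside this rule and were named after their values were seen. Members and lists were chosen with earlier results of these data known. Alternatives were DESeq2 size factors, upper-quartile scaling, total counts, the DESeq2 Wald test, all genes without a filter, a minimum of 10 counts per library, limma fitted to log2 RPKM with a pseudocount of 1 or 0.1 where the mean RPKM was 0.5 or more, a replicate block, each library left out and, chosen after seeing the data, offsets for GC content and transcript length.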

Additional observations from a re-analysis of the deposited data

How the results depend on the processing

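In all 16 alternatives the 7 members that passed kept their direction and an adjusted p under 0.05. Past a log2 fold change of 1 as well, 0 members were called with limma on log2(RPKM + 1) or log2(RPKM + 0.1), and 0 to 1 with each library left out. With limma, 10 of the 21 coactivators passed on either scale, against 16 with edgeR. Over all genes, 8296 of 16484 passed with limma on log2(RPKM + 1) and 8231 on log2(RPKM + 0.1), against 10305 of 20776 with edgeR. With GC and length offsets, 1 of the 3 E proteins passed, and USP47 turned to 0.042. In that fit 10427 of 20776 genes passed. BCL9 lay between −0.056 and 0.041 with each library left out, above 0 without siCtrl replicate 1, and passed in none of these. With a replicate block, 7 members passed and TLE2 was at −1.02. Of the members and the other genes followed through the alternatives (below), the block changed the call of none. With it, 17 coactivators and 8 partners of TLE passed, against 16 and 7, while 10803 of 20776 genes passed in all. TLE6 was at −0.012 without a filter, −0.16 with the offsets and −0.099 to 0.078 with each library left out, passing in none. Of 31 other genes followed through the alternatives (BAP18, list and marker genes, SKP1 and CXCR5), 23 kept direction and side in each alternative that gave them a value, and the limma fits gave none for genes under their RPKM minimum. The groups did not overlap for 7 members with total counts only and for 8 with the other scalings. The share of all genes without overlap was taken under the main TMM scaling only, at 56.6%. Depth limits LEF1 most, since its 0 counts cannot be told from a low level.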
